A study of Mus musculus with 14 samples.

Results

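Genes that untreated macrophages express were compared between macrophages given mast cell supernatant for 3.5 h and macrophages left untreated. These genes were defined by a mean of at least 1 CPM (counts relative to the library's total after TMM scaling, in the usual CPM unit) over the untreated libraries, and 37 listed mast cell transcripts were left out. In all, 11859 of the 47937 genes in the deposited table, and of the 13061 genes that could be tested, met this definition. Both groups were bone marrow-derived macrophages of wild-type (WT) mice, that is, macrophages grown from bone marrow precursors. There were 6 untreated libraries, 2 in each of the 3 labelled batches, and 5 libraries with mast cell supernatant, 2 in batch 1, 1 in batch 2 and 2 in batch 3. A further 3 libraries, 1 per batch, came from macrophages given the supernatant of mast cell traps and enter only where both supernatants are set against each other. The labels do not give the strain, sex or age of the mice, how the mast cells were grown or stimulated, or whether the libraries came from separate cultures, so the p-values cover only the spread among libraries, and that spread may be technical. Runs of 5 treated values are given in batch order: 2 of batch 1, 1 of batch 2 and 2 of batch 3.

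Mast cells are tissue-resident granulocytes that store proteases and histamine and release cytokines, lipid mediators and growth factors when activated. Macrophages sense such products through G protein-coupled, cytokine and integrin receptors. Transforming growth factor beta (TGF-beta), a cytokine that restrains macrophage activation, binds the type II receptor Tgfbr2, which recruits and phosphorylates the type I receptor Tgfbr1, and the signal passes through SMAD transcription factors whose own targets include inhibitors of the pathway.

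Total counts ran from 13455686 to 22720419 in untreated libraries and from 11729073 to 16123421 with mast cell supernatant, and 1.26% to 1.71% of the counts of these 11 libraries were of mitochondrially encoded mRNAs. The libraries carried the macrophage markers of their label: Adgre1, which encodes F4/80, averaged 1870 ± 228 CPM (SD, n = 6) untreated and 1810 ± 129 CPM (n = 5) treated, and Csf1r, the receptor for macrophage colony-stimulating factor, 2490 ± 404 and 2300 ± 238 CPM. The summed level of the 37 mast cell transcripts was 24.5 to 40.1 CPM in untreated libraries. With mast cell supernatant it was 110 and 141 CPM in batch 1, 1620 CPM in batch 2, and 355 and 287 CPM in batch 3. Cpa3, a mast cell carboxypeptidase that macrophages hardly transcribe, was at 0 to 0.0615 CPM untreated and at 11.5 to 213 CPM treated. Of the 11 neutrophil markers expressed at 1 CPM or more, 0 passed by edgeR or limma-voom, 1 was lower by DESeq2 and 1 was at an unadjusted p under 0.05; the summed level of the list was 129 to 449 CPM untreated and 102 to 384 CPM treated. Of the 5 fibroblast markers so expressed, 0 passed by edgeR, limma-voom or DESeq2 and 0 were at an unadjusted p under 0.05, and the sum of that list was 163 to 187 CPM in the libraries of batch 2 of both groups and 11 to 34.8 CPM in the other libraries of both. Of the dendritic cell, B cell and T or NK cell markers, 3, 2 and 1 were so expressed, and 0 passed by edgeR, limma-voom or DESeq2, with 1 dendritic cell marker at an unadjusted p under 0.05. Of the 9 erythroid and megakaryocyte markers only Pf4, the platelet factor 4 gene, was so expressed, and it rose by 0.24 ± 0.06 on the log2 scale (SE; edgeR's adjusted p = 0.0391, and past the threshold by limma-voom and DESeq2 too). The summed level of that list was 122 to 242 CPM untreated and 149 to 297 CPM treated, and the call of Pf4 was lost with a block for the replicate number and in 9 of the 14 fits that leave out 1 library. The part of such cells in other results was not tested. These are bulk libraries, in which fewer cells of a type and less RNA per cell cannot be told apart.

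Mast cell supernatant changed 569 of the 11859 genes, 4.8%, of which 228 (1.92%) rose and 341 (2.88%) fell at an adjusted p under 0.05 (edgeR's quasi-likelihood test with batch as a term). Over all 13061 genes tested, mast cell transcripts included, 2.17% rose and 2.62% fell. The changes were mostly small: 48 rises and 105 falls reached 1.5-fold, 9 rises and 29 falls reached 2-fold, and 0 rises and 3 falls reached 4-fold. The median log2 difference was 0.35 among the risen genes, -0.42 among the fallen genes and -0.01 over all genes. All 569 had the same sign in the 3 batches. The test is of 1 change shared by the batches and so favours such genes, and their agreement is not separate evidence. The 5 treated and 6 untreated libraries did not overlap for 200 genes (1.69%, beside 1.82% of all genes tested), 41 of them risen and 114 fallen. Near the lower limit, 1 gene rose and 1 fell among 266 at 1 to 1.2 CPM, and 3 rose and 1 fell among 309 tested genes at 0.8 to 1 CPM, which were not included. These counts depended on the fit: 12 rose and 40 fell without the batch term. With the libraries of 1 batch left out, 126 rose and 276 fell without batch 1, 90 and 128 without batch 2, and 393 and 428 without batch 3. With a block for the replicate number, which marks a shared batch in numbers 1 to 4, 71 rose and 138 fell. This fit used only the 11 libraries with those numbers, trap supernatant included. It left out untreated replicates 5 and 6 and mast cell supernatant replicate 5. The effects of the block and of the fewer libraries cannot be told apart.

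Genes of TGF-beta signalling had the largest share of falls among the 30 gene lists shown. Of 24 list genes, 7 fell and 0 rose: the type I receptor Tgfbr1, the membrane adaptor Pmepa1, the ubiquitin ligase adaptor Spsb1, the inhibitory SMAD gene Smad6, the SMAD corepressor gene Skil, the ubiquitin ligase gene Smurf1 and the secreted matrix protein gene Tgfbi. That is 29.2% of the list beside 2.88% of all genes, and the list's median log2 difference was -0.13 beside -0.01. The list was drawn up with earlier results of these data known, so its direction is not independent evidence. Tgfbr1 (chromosome 4, 47353222 to 47414931, plus strand, GRCm38) was at 267 CPM in the lowest untreated library, 350 CPM in the median and 406 CPM in the highest. With mast cell supernatant it was at 191 and 186 CPM in batch 1, 143 CPM in batch 2, and 128 and 151 CPM in batch 3, so every treated library lay below every untreated one. Its mean dropped from 345.5 ± 52.4 to 159.7 ± 27.6 CPM (SD, n = 6 and 5), a fitted log2 change of -1.16 ± 0.08 (SE, here and for all log2 changes; edgeR's adjusted p = 1.59e-06). Tgfbr2, which encodes the partner receptor, averaged 106.5 ± 13.1 CPM untreated and 107.2 ± 13.5 CPM treated (log2 -0.03 ± 0.05, adjusted p = 0.819), and Tgfb1, which encodes the ligand, 611 ± 38.1 and 628 ± 68.5 CPM (adjusted p = 0.811).

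Sequence upstream is shown for genes of this list that were picked because they fell. RefSeq's table of promoters (GRCm38.p6) held 5 of the 7; those of Tgfbr1 (the first of its 2 entries), Spsb1 and Smad6 follow, 5′ to 3′ on the strand of the gene, from 250 bases before the transcription start to the last base before an annotated exon. Capitals mark GGCGC or, on the other strand, GCGCC, the GC-rich element that SMAD proteins bind.
Tgfbr1, chr4:47352972-47353221, plus strand: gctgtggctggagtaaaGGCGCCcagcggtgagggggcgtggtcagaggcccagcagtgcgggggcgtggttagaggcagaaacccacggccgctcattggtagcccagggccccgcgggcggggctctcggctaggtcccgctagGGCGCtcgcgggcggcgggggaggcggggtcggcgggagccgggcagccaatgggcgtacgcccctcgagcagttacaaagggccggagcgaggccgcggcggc
Spsb1, chr4:149955044-149955256, minus strand: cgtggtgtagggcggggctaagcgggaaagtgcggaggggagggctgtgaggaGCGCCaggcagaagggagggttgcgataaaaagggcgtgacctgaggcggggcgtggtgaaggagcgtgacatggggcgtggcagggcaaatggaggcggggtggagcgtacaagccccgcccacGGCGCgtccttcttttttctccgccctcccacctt
Smad6, chr9:64022060-64022309, minus strand: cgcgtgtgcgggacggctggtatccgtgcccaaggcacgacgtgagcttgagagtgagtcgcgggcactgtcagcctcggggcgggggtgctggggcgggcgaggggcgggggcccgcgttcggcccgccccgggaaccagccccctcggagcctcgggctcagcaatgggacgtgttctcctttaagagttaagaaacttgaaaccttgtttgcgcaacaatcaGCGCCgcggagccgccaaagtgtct
Of the 250 upstream bases, searched on both strands, GGCGC was present in 10520 of 32851 RefSeq promoters (32%) and in 10 of the 16 list genes with an entry. CAGACA, the core of the CAGA box, was in 5628 promoters (17.1%) and 2 of the 16, and the SMAD palindrome GTCTAGAC in 55 promoters (0.167%) and 0 of the 16. Of the 5 fallen genes with an entry, only Smurf1, which is not printed, had CAGACA before an annotated exon. Base composition was not taken into account. Such matches describe the letters only and say nothing of binding.

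Pmepa1, which encodes a TGF-beta-induced inhibitor of the pathway (chromosome 2, 173224458 to 173276533, minus strand), had the largest fall of all genes described. It was at 1.95, 3.99 and 14.9 CPM in the lowest, median and highest untreated library, at 0.234 and 0.378 CPM in the treated libraries of batch 1, at 1.6 CPM in batch 2, and at 0.34 and 0.414 CPM in batch 3. The groups did not overlap, and both were highest in batch 2, where the untreated libraries were the highest of their group too. The log2 change was -3.14 ± 0.3 (adjusted p = 1.31e-05, edgeR), with -2.77, -3.06 and -3.17 in batches 1, 2 and 3. Spsb1 was at 6.76, 15.5 and 31.4 CPM in the lowest, median and highest untreated library. In treated libraries it was at 2.42 and 2.83 CPM in batch 1, 9.25 CPM in batch 2, and 4.59 and 4.39 CPM in batch 3, and only the batch 2 library lay within the untreated range. Tgfbi was at 218, 264 and 580 CPM in the lowest, median and highest untreated library, and fell by 0.35 ± 0.06 (adjusted p = 0.0046; -0.38, -0.49 and -0.2 by batch). Smad6 fell by 1.27 ± 0.24 (adjusted p = 0.00566, and adjusted p = 0.113 with the replicate block), from 3.33 ± 1.71 to 1.21 ± 1.03 CPM. Smurf1 fell by 0.24 ± 0.05 (adjusted p = 0.0112, and 0.0816 with the replicate block).

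The response of 10 of the 24 list genes differed by batch, beside 9.79% of all genes so tested and described. Skil and Smad7, which encode further inhibitors of SMAD signalling, were among them. Skil fell by 0.96 ± 0.21 (adjusted p = 0.0282, edgeR), with -0.26, -1 and -1.58 in batches 1, 2 and 3, and the test of the response by batch passed (adjusted p = 9.28e-05). Its call was lost with the replicate block (adjusted p = 0.212) and in 6 of the 14 fits that leave out 1 library: without untreated replicate 2 (adjusted p = 0.0571), 3 (0.0505) or 5 (0.0547) and without mast cell supernatant replicate 2 (0.0729), 3 (0.077) or 5 (0.074). Smad7 had 0.06, -0.12 and -1.3 by batch and did not pass over batches (adjusted p = 0.298). Id2, Id3 and Bambi, other genes that TGF-beta or its relatives regulate, had positive values in batch 1 and negative ones in batch 3. Other list genes did not, with 0.12, -1.14 and 0.86 by batch for Id1 and -0.34, 0.04 and 0.24 for Smad3. Of the 24 list genes, 10 were positive in batch 1 and negative in batch 3, 41.7% beside 23.2% of all genes. The list's medians were -0.09, -0.13 and -0.49 by batch. Over all genes these medians were -0.0125, -0.0133 and 0.000501. With the replicate block or without batch 2, 4 of the 7 list genes passed, and 2 passed without the batch term.

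**Figure D1:**
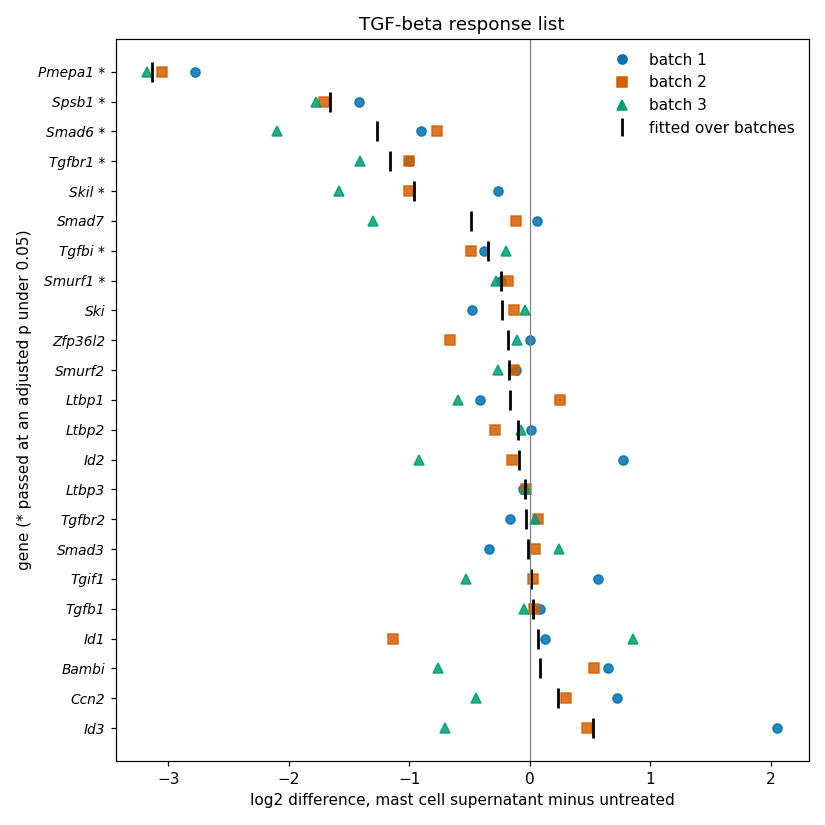
Log2 difference between mast cell supernatant and untreated macrophages for 23 genes of the TGF-beta response list, within each batch (coloured points) and as fitted over the batches (black ticks). The 7 starred genes fell; Pmepa1 and Spsb1 lie left of -1 in every batch, and Skil runs from -0.26 in batch 1 to -1.58 in batch 3.

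Of 16 integrin genes, 4 fell and 0 rose, namely Itgb3, Itga5, Itgav and Itgb5, and 2 fell with the replicate block. The median of the 16 genes was -0.04, and 8 of the 16 had a positive value in batch 1, beside 5648 of all 11859 genes. Itgb3, the beta 3 subunit that pairs with the alpha V subunit (chromosome 11, 104608000 to 104670476, plus strand), was at 8.23, 14.9 and 15.8 CPM in the lowest, median and highest untreated library. It was at 7.17 and 5.19 CPM in the treated libraries of batch 1, 3.14 CPM in batch 2, and 5.18 and 4.8 CPM in batch 3, all below the untreated range. Itga5, the fibronectin receptor subunit alpha 5, fell by 0.66 ± 0.09 (adjusted p = 0.000593, edgeR). It ran from 599 to 1140 CPM untreated and from 380 to 559 CPM treated, with no overlap, and its response differed by batch (-0.33, -0.98 and -0.79; adjusted p = 0.00154). Itgav, the alpha V subunit, fell by 0.58 ± 0.12 (adjusted p = 0.0211), a call that was lost with the replicate block (adjusted p = 0.244), without untreated replicate 6 and without mast cell supernatant replicate 5 (highest adjusted p = 0.0603). Itgb5 fell by 0.2 ± 0.04 (adjusted p = 0.015), which was lost with the block (0.147) and without mast cell supernatant replicate 1 or 2 (highest adjusted p = 0.0555).

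Among 27 genes of focal adhesions and the Cas scaffold, 3 rose and 2 fell (1 and 2 with the replicate block; 5 rose without untreated replicate 3). Cass4, which encodes an adhesion scaffold of the Cas family, was at 2.93, 5.34 and 8.33 CPM in the lowest, median and highest untreated library. With mast cell supernatant it was at 20.5 and 19.5 CPM in batch 1, 13.9 CPM in batch 2, and 12.2 and 13.9 CPM in batch 3, each above the untreated range. The rise was 1.5 ± 0.12 on the log2 scale (adjusted p = 2.02e-06, edgeR). Tns3, which encodes the integrin adaptor tensin 3, fell by 0.41 ± 0.05 (adjusted p = 9.65e-05), from 842 to 948 CPM untreated to 615 to 704 CPM treated. Of 27 genes of actin nucleation and branching 6 rose and 4 fell, and their median was 0.01. With the replicate block 1 rose and 3 fell, and 3 rose without untreated replicate 6 or mast cell supernatant replicate 1 or 3. The fallen formin gene Fmnl3 (chromosome 15, 99317225 to 99370482, minus strand) was at 133, 142 and 160 CPM in the lowest, median and highest untreated library and at 87, 79, 91.7, 91.8 and 84.9 CPM in the treated ones. Neither group reached into the other, and the fall was 0.71 ± 0.05 (adjusted p = 3.28e-07; -0.7, -0.76 and -0.69 by batch). Fhod1, another formin gene, fell by 0.61 ± 0.05 (adjusted p = 1.78e-06), whereas the formin gene Diaph1 rose by 0.2 ± 0.04 (adjusted p = 0.00579). Coro1a, which encodes the actin-binding protein coronin 1A, rose by 0.31 ± 0.05 (adjusted p = 0.00274). Fgd4, an exchange factor for Cdc42, rose by 0.65 ± 0.08 (adjusted p = 0.000206), and Rhoq, a GTPase related to Cdc42, fell by 0.4 ± 0.06 (adjusted p = 0.00191).

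**Figure D2:**
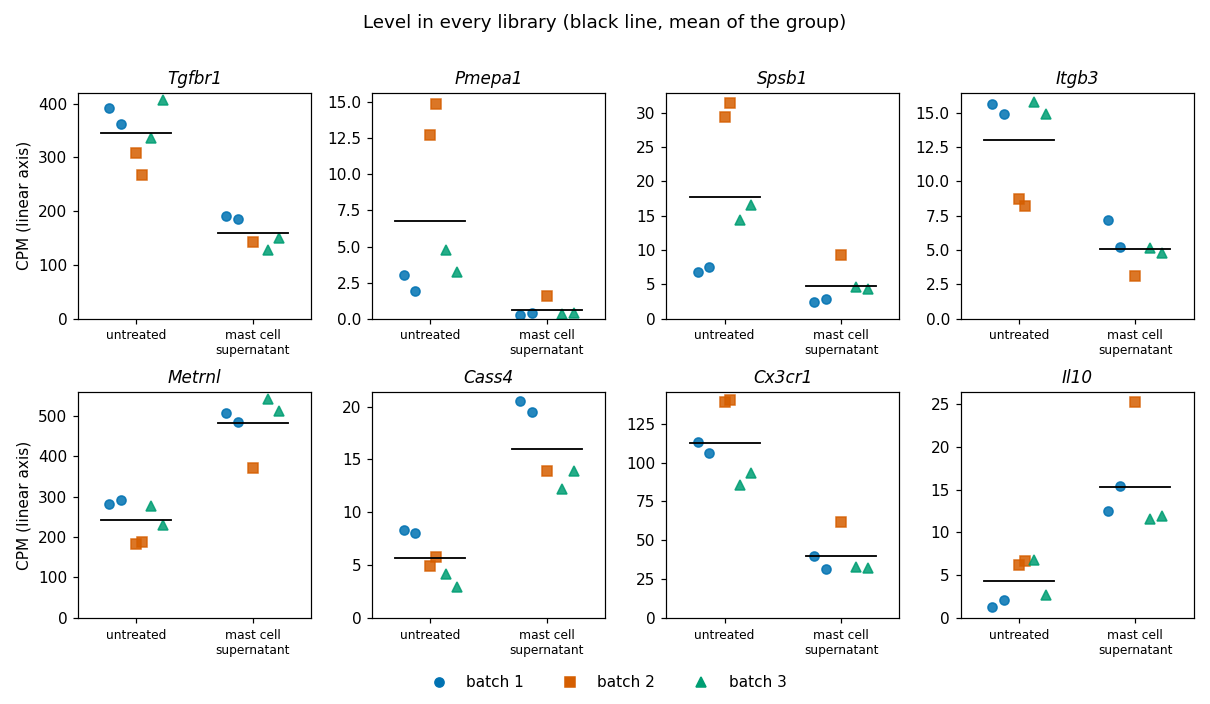
CPM on linear axes of Tgfbr1, Pmepa1, Spsb1, Itgb3, Metrnl, Cass4, Cx3cr1 and Il10 in the 6 untreated and 5 mast cell supernatant libraries, with the batch as colour and shape and the group mean as a black line. The groups do not overlap for 7 of the 8 genes; for Spsb1 the treated library of batch 2, at 9.25 CPM, lies above the untreated libraries of batch 1.

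Receptors for chemoattractants and mediators moved in both directions. Of 18 chemoattractant receptor genes, 3 rose and 3 fell (median 0.09), with 2 and 1 under the replicate block, and 1 fell without mast cell supernatant replicate 1. C5ar1, the receptor for complement C5a, was at 472, 603 and 727 CPM in the lowest, median and highest untreated library and at 810, 825, 905, 1030 and 1020 CPM in treated ones, and rose by 0.6 ± 0.09 (adjusted p = 0.00225, edgeR). Cx3cr1, the fractalkine receptor, was at 85.8, 110 and 140 CPM in the lowest, median and highest untreated library and at 40, 31.6, 61.5, 32.9 and 32.3 CPM in treated ones, a fall of 1.43 ± 0.12 (adjusted p = 3.07e-05) with no overlap. Of 23 receptor genes for mediators and nucleotides, 1 rose and 2 fell; 0 fell with the replicate block, and 1 fell without mast cell supernatant replicate 3 or 5. Gpr84, a receptor for medium-chain fatty acids, fell by 1.12 ± 0.17 (adjusted p = 0.00383, and adjusted p = 0.0989 with the replicate block).

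Secreted factors also moved in both directions, 2 up and 2 down of 30 growth and matrix factor genes (median 0.02). With the replicate block 1 rose and 2 fell; 1 rose without untreated replicate 1, 4 or 5 or mast cell supernatant replicate 1, 4 rose without mast cell supernatant replicate 5 and 4 fell without replicate 4. Metrnl, the gene of the secreted factor meteorin-like (chromosome 11, 121701544 to 121716306, plus strand), shared the smallest adjusted p of all genes with Spsb1 (2.13e-07, edgeR). It was at 182, 254 and 291 CPM in the lowest, median and highest untreated library. In treated libraries it was at 507 and 485 CPM in batch 1, 371 CPM in batch 2, and 541 and 511 CPM in batch 3, and the rise of 0.95 ± 0.06 separated the groups fully. Pdgfa and Pdgfc, which encode the platelet-derived growth factors A and C that act on mesenchymal cells, both fell. Pdgfa (chromosome 5, 138976014 to 138997370, minus strand) was at 95.3, 111 and 140 CPM in the lowest, median and highest untreated library and at 43.6, 51.5, 42.7, 45.9 and 42.8 CPM in treated ones. The treated values lay within a narrow range in all 3 batches, and the fall was 1.31 ± 0.09 (adjusted p = 1.59e-06). Its size differed by batch, with -1.04, -1.69 and -1.31 (adjusted p = 0.0401 for the response by batch, edgeR). Pdgfc averaged 2.83 ± 0.606 CPM untreated and 1.15 ± 0.274 CPM treated, and fell by 1.36 ± 0.23 (adjusted p = 0.00244).

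Il10 encodes the anti-inflammatory cytokine interleukin-10 (chromosome 1, 131019845 to 131024974, plus strand). Among the genes that passed it had the largest rise, 1.99 ± 0.36 (adjusted p = 0.0113, edgeR). It was at 1.31, 4.45 and 6.71 CPM in the lowest, median and highest untreated library, and at 12.5 and 15.4 CPM in batch 1, 25.2 CPM in batch 2, and 11.5 and 11.9 CPM in batch 3 with mast cell supernatant. The treated libraries were all higher, and the batch 2 library had the highest CPM. Within batches 1, 2 and 3 the log2 differences were 3.02, 1.96 and 1.44, largest in batch 1. The call was lost with the replicate block (adjusted p = 0.16). Of the 25 inflammatory cytokine and chemokine genes, Il10, Ccl6 and Tnfsf9 rose and Cxcl16 fell, and 5 rose without untreated replicate 3. Of these 4 only Ccl6 passed with the replicate block, where Tnfsf9 had adjusted p = 0.205 and Cxcl16 adjusted p = 0.0621, and Tnfsf9 was also lost in 9 of the 14 fits that leave out 1 library. Ccl6, a CC chemokine gene, rose by the same amount in each batch, 0.37, 0.36 and 0.39 (0.38 ± 0.05, adjusted p = 0.000145).

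Transcription factor genes of macrophages were divided, with 5 risen and 5 fallen of 46 (median -0.05). With the replicate block 2 rose and 2 fell, and 2 fell without mast cell supernatant replicate 1 or 2. Mef2c, which encodes a MADS-box factor, was at 30.1, 33.6 and 39.7 CPM in the lowest, median and highest untreated library and at 51.6, 47, 46.7, 49 and 49.4 CPM in treated ones, a rise of 0.49 ± 0.07 (adjusted p = 0.000633, edgeR) with no overlap. Maf, which encodes c-MAF, an activator of Il10, rose by 0.95 ± 0.16 (adjusted p = 0.00782, and adjusted p = 0.103 with the replicate block), with 0.36, 1.14 and 1.37 by batch. Cebpa, a factor of myeloid differentiation, fell by 0.76 ± 0.09 (adjusted p = 0.000372), and its response differed by batch, with -1, -0.9 and -0.44 (adjusted p = 0.0182). Of 24 macrophage identity genes 4 rose and 2 fell, the latter Mertk and Axl, related receptors for apoptotic cells. With the replicate block 1 rose and 0 fell, and 2 rose without untreated replicate 1, 4 or 5 or mast cell supernatant replicate 1, 3 or 4. Mertk fell by 0.9 ± 0.15 (adjusted p = 0.00422, and 0.112 with the block) and Axl by 0.27 ± 0.05 (adjusted p = 0.00422, and 0.0672 with the block). Together with Itgb3, Itgav and Itgb5, whose integrins also take up apoptotic cells, they are the 5 genes that fell among 27 phagocytic and scavenger receptors, of which 1, Cd300a, rose (0.24 ± 0.04, adjusted p = 0.00191). Of these 5 falls 1 passed with the replicate block, and 3 genes of the list rose without untreated replicate 3. Among 18 glucocorticoid targets, Mertk, Fkbp5 and Klf9 fell and 0 rose (2 fell with the replicate block, and 2 others rose without untreated replicate 3). The median of the 18 was -0.07, with 0.36, -0.21 and -0.28 by batch, and 13 had a positive value in batch 1. The response of 11 of the 18 differed by batch, beside 9.79% of all genes so tested and described. Fkbp5, a chaperone of the glucocorticoid receptor, fell by 0.57 ± 0.11 (adjusted p = 0.0054) and the zinc finger gene Klf9 by 0.74 ± 0.13 (adjusted p = 0.00422). Of 21 clock genes 2 fell and 0 rose (1 fell without mast cell supernatant replicate 1 or 2), and of these Usp2, a deubiquitinase gene, was at 9.59, 10.9 and 15.5 CPM in the lowest, median and highest untreated library and at 2.1 to 3.23 CPM in treated ones. It fell by 2.01 ± 0.18 (adjusted p = 5.33e-06) with no overlap.

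Of 31 genes of the unfolded protein response and its ATF4 branch, 6 rose and 0 fell, and the list's median was 0.14 beside -0.01 over all genes. With the replicate block 3 rose, and 2 rose without untreated replicate 1 or mast cell supernatant replicate 3. The 6 were Calr, Hsp90b1, Pdia6 and Hspa5, which encode chaperones of the endoplasmic reticulum, and Ddit3 and Sesn2, which encode the factor CHOP and a stress-induced inhibitor of mTORC1. Other chaperone genes of the list did not pass, among them Canx (calnexin, log2 0.03, adjusted p = 0.787, edgeR) and Dnajc3 (0.03, adjusted p = 0.825). Sesn2 was at 45, 46.3 and 56.7 CPM in the lowest, median and highest untreated library and at 57, 59.5, 60.5, 68.1 and 70 CPM in treated ones, and rose by 0.36 ± 0.06 (adjusted p = 0.00214, edgeR). The groups came close without overlapping. Hspa5, which encodes BiP, rose by 0.32 ± 0.07 (adjusted p = 0.0175), with 0.3, 0.32 and 0.36 by batch, and its call was lost without mast cell supernatant replicate 2 (adjusted p = 0.0582). Of 22 heat shock genes 3 rose and 0 fell: Ahsa1, an activator of HSP90 (0.31 ± 0.05, adjusted p = 0.00257), and the chaperone genes Dnajb4 and Hspa8. Dnajb4 was lost in 10 and Hspa8 in 11 of the 14 fits that leave out 1 library, and both with the replicate block (adjusted p = 0.261 and 0.119), so that 1 gene rose in 9 of those fits and with the block.

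In lipid handling, Plin2, which encodes the lipid droplet protein perilipin 2, rose by 0.42 ± 0.05 (adjusted p = 0.000234), from 1030 to 1710 CPM untreated to 1330 to 2370 CPM treated. With Lpl, the lipoprotein lipase gene (0.2 ± 0.04, adjusted p = 0.00424, and 0.0755 with the replicate block), it made 2 risen and 0 fallen of 22 genes of the LXR and cholesterol efflux list (edgeR). Pla2g4a, which encodes the phospholipase that releases arachidonic acid, rose by 0.64 ± 0.11 (adjusted p = 0.00234), and was the only riser of 18 genes of lipid mediator synthesis, of which Ptges fell, a call that was lost with the replicate block and without mast cell supernatant replicate 2; 2 fell without untreated replicate 1. In the list of 23 cholesterol synthesis genes 0 passed by edgeR, limma-voom or DESeq2, and 0 were at an unadjusted p under 0.05.

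**Figure D3:**
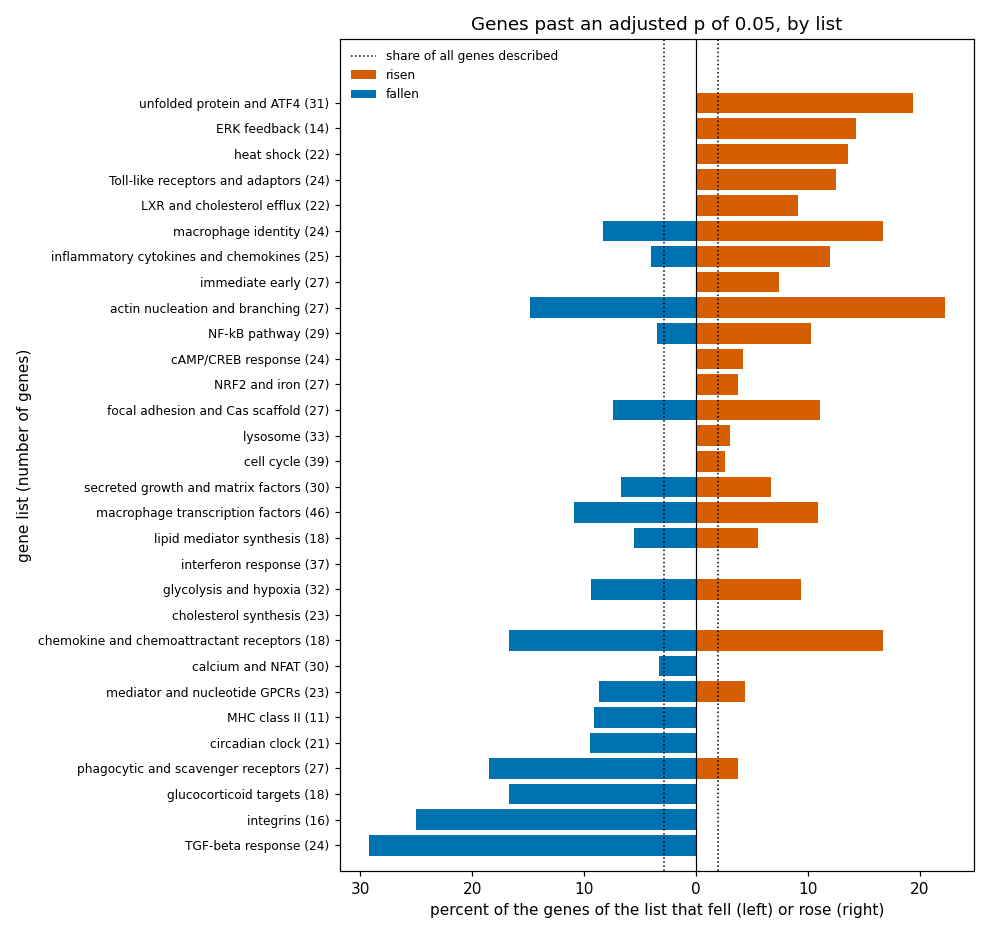
Share of each of 30 gene lists that fell (blue, left) or rose (orange, right) at an adjusted p under 0.05 by edgeR; the number of genes in each list is in brackets and the dotted lines are the shares among all 11859 genes, 2.88% and 1.92%. The TGF-beta list has the largest share of falls, 29.2%, and the actin list the largest share of rises, 22.2%.

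Further large changes fell outside these lists or at their edge. Rab11fip4, which encodes an effector of the recycling GTPase Rab11, was at 11.1, 25.9 and 37.8 CPM in the lowest, median and highest untreated library and at 2.96, 3.78, 7.82, 3.99 and 2.73 CPM in treated ones. This fall of 2.48 ± 0.22 (adjusted p = 4.2e-05, edgeR) was the next largest after that of Pmepa1. Cpd, which encodes a membrane carboxypeptidase, fell by 0.97 ± 0.07 (adjusted p = 5.57e-07), from 435 to 563 CPM untreated to 192 to 305 CPM treated. Cytip, which encodes a regulator of cytohesins and integrin adhesion, rose by 0.73 ± 0.08 (adjusted p = 4.2e-05), with 0.68, 0.75 and 0.75 by batch. Klf2, a zinc finger gene of the immediate early list, rose by 1.12 ± 0.17 (adjusted p = 0.00274), and its response differed by batch, with 1.31, 1.67 and 0.46 (adjusted p = 0.0078).

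The order of the rises over the batches was set beside that of the mast cell transcripts. Over the untreated libraries of the same batch, the summed mast cell level rose by 95.7 CPM in batch 1, 1590 CPM in batch 2 and 286 CPM in batch 3. Of the 228 risen genes, 26 (11.4%) had their within-batch log2 differences in that order, highest in batch 2 and lowest in batch 1, beside 1598 of all 11859 (13.5%). In a wider list of genes that mast cells share with other leukocytes, 0 of 17 rose and 1, Csf2rb, fell by edgeR (0 and 1 by limma-voom, 2 and 1 by DESeq2), a fall that was lost with the replicate block and in 7 of the 14 fits that leave out 1 library. The medians of this wider list were 0.03, 0.34 and 0 in batches 1, 2 and 3, highest where the summed mast cell level rose most. The response of 7 of its 17 genes differed by batch, beside 9.79% of all genes so tested and described. The part of mast cell RNA in any single rise was not tested.

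Many early response and inflammatory genes did not answer mast cell supernatant in the same way in all batches. The response differed by batch for 1159 of 11836 genes tested, 9.79% (edgeR's test of the group-by-batch terms), beside 9.58% of all 12391 genes so tested. Of these, 739 were higher with mast cell supernatant in batch 1 and lower in batch 3, 239 had the opposite signs, and 141 had 1 sign in all batches. The count depends on single libraries: it was 685 without untreated replicate 1, 687 without untreated replicate 4, 739 and 744 without mast cell supernatant replicates 3 and 4, and 2335 without untreated replicate 3. Of the 569 genes that rose or fell over the batches, 78 were among the 1159. Besides genes so marked above, these 78 included Itgav, Mertk, Gpr84, Klf9, Maf, Cpd, Cxcl16, Hk2 and Cd14. Rcan1, an inhibitor of calcineurin that calcium signals induce, had the smallest p. It was at 448, 526 and 850 CPM in the lowest, median and highest untreated library, and at 1470 and 1700 CPM in batch 1, 1640 CPM in batch 2, and 175 and 171 CPM in batch 3 with mast cell supernatant. The log2 differences were 1.59, 1.85 and -2.27 (adjusted p = 2.41e-13), with the treated libraries above the untreated range in 2 batches and below it in the third.

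Immediate early genes shared this form. In the list of 27, all 27 had a positive value in batch 1 and 20 a negative one in batch 3. Over all 11859 genes these counts were 5648 and 5917. The response of 25 of the 27 differed by batch. Fosb, which encodes a subunit of the AP-1 factor, was at 3.71 to 6.03 CPM untreated, at 90.3 and 106 CPM in batch 1, 26 CPM in batch 2, and 0.849 and 1.32 CPM in batch 3. The nuclear receptor gene Nr4a3 was at 30.6 to 85 CPM untreated, at 130 and 179 CPM in batch 1, 61.1 CPM in batch 2, and 2.29 and 2.73 CPM in batch 3. In batch 3 both genes were thus far below every untreated library. The response by batch had adjusted p = 7.01e-10 for Fosb and 5.6e-10 for Nr4a3. Of 24 genes of the cyclic AMP and CREB response, 17 differed by batch, and the list's medians were 1.36, 0.51 and -0.24.

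Inflammatory genes followed. Of the 25 cytokine and chemokine genes, 18 differed by batch, and their medians were 2.11, 0.66 and -0.82. Tnf, which encodes tumour necrosis factor, was at 179 to 243 CPM untreated, at 840 and 1040 CPM in batch 1, 318 CPM in batch 2, and 130 and 119 CPM in batch 3. Ptgs2, which encodes the inducible cyclooxygenase of prostaglandin synthesis, was at 8.07 to 18.3 CPM untreated, at 112 and 157 CPM in batch 1, 97.3 CPM in batch 2, and 8.32 and 8.2 CPM in batch 3. The treated libraries of batches 1 and 2 lay above the untreated range for both genes, and those of batch 3 below it for Tnf and at its lower end for Ptgs2. Adjusted p of the response by batch was 6.41e-09 for Tnf and 5.43e-07 for Ptgs2. Ccl2, a monocyte chemokine gene, was at 21.5 to 44.9 CPM untreated, at 207 and 229 CPM in batch 1, 145 CPM in batch 2, and 7.81 and 8.53 CPM in batch 3 (adjusted p = 0.00237). Il10 had a positive value in each batch and its response by batch did not pass (adjusted p = 0.103). Of 29 genes of the NF-kB pathway, 20 differed by batch; over the batches Ikbke, Tnfrsf1a and Tnip3 rose and Tnfrsf1b fell (1 rose and 1 fell with the replicate block; 3 fell without mast cell supernatant replicate 4).

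**Figure D4:**
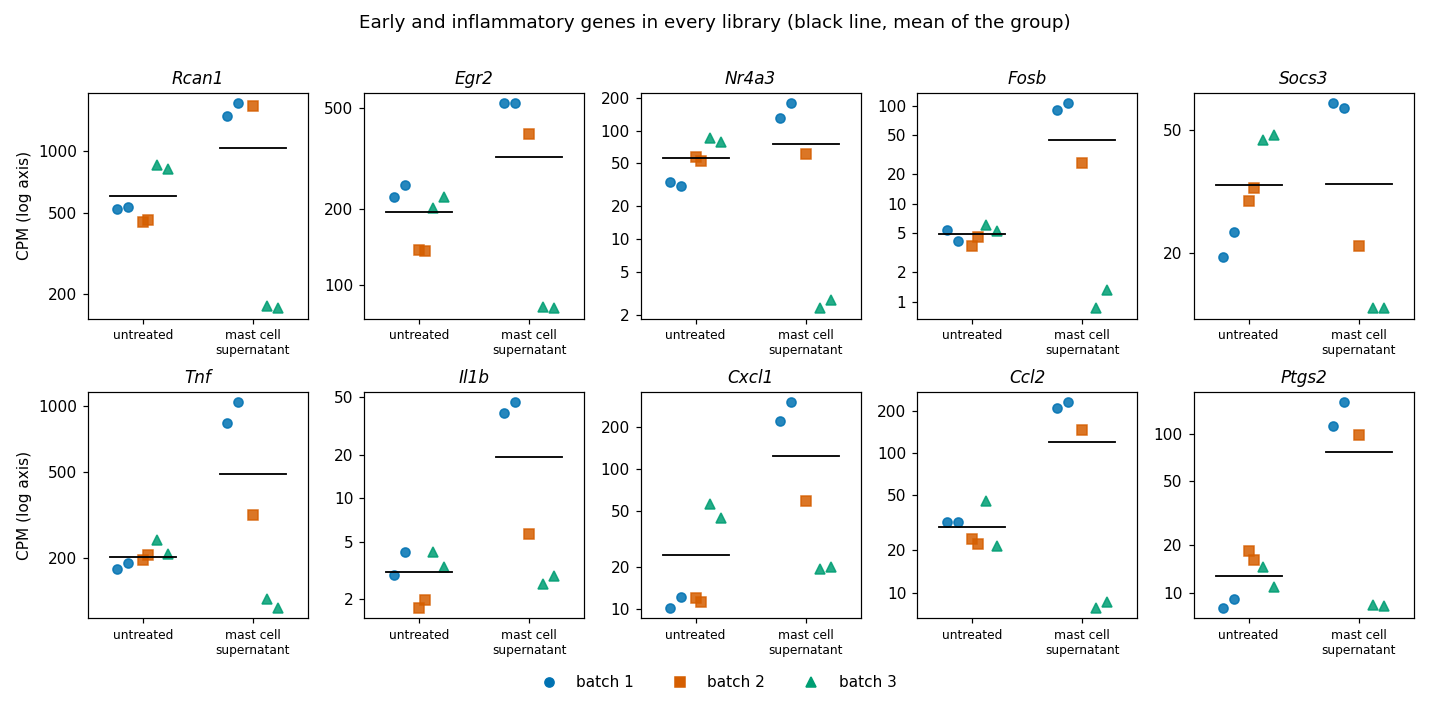
CPM on log axes of 10 early and inflammatory genes in the 6 untreated and 5 mast cell supernatant libraries, with the batch as colour and shape and the group mean as a black line. The treated libraries of batch 1 are above all untreated ones in each panel, and those of batch 3 are at or below the lowest untreated library in panels such as Rcan1, Nr4a3, Fosb and Tnf.

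**Figure D5:**
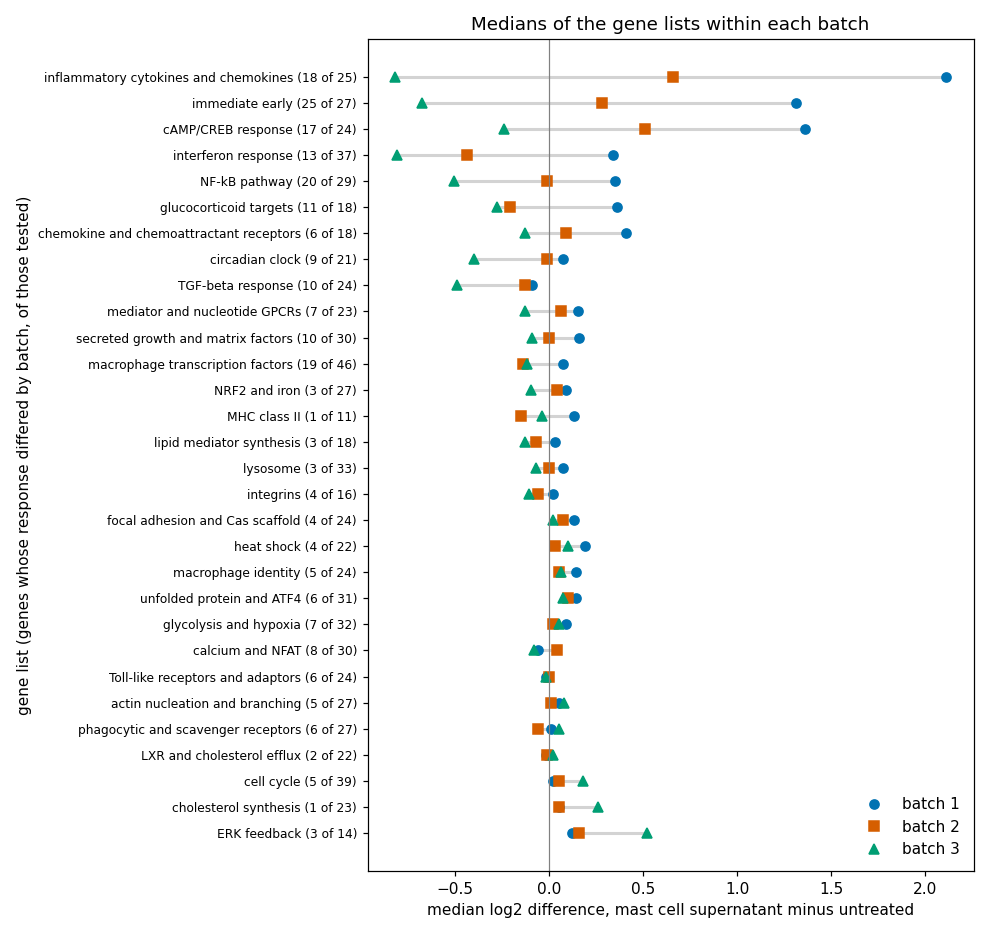
Median log2 difference between mast cell supernatant and untreated libraries for 30 gene lists within each batch, with the number of genes whose response differed by batch in brackets. The inflammatory list spans the widest range, from 2.11 in batch 1 to -0.82 in batch 3, whereas the medians of the lists of actin and phagocytic genes stay near 0.

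Interferon-inducible genes, which encode antiviral proteins and their regulators, were lower with mast cell than with trap supernatant without passing a test by edgeR. Of 37 list genes, 36 were lower with mast cell supernatant, 23 of them at an unadjusted p under 0.05, which is 62.2% of the list beside 2.48% of all genes in this direction. The list's median difference between the supernatants was -0.69. Genes of such a list are not independent, and the comparison rests on 3 trap libraries, 1 per batch. These counts are therefore a description and not a test of the list. Against untreated macrophages, 0 of the 37 passed with mast cell supernatant by edgeR or limma-voom, 3 were lower by DESeq2, 6 were at an unadjusted p under 0.05, and the median was -0.36, with 0.34, -0.44 and -0.81 in batches 1, 2 and 3. Values were positive for 33 genes in batch 1 and 2 genes in batch 2, and negative for all 37 in batch 3. Over all 11859 genes these counts were 5648, 5552 and 5917. The response of 13 of the 37 differed by batch. Ifit1, an interferon-induced RNA-binding protein gene, had 0.25, -1.34 and -2.14 (by batch, adjusted p = 0.0439), and Rsad2, which encodes the antiviral enzyme viperin, 0.77, -1.1 and -2.3 (adjusted p = 3.12e-05). The interferon genes named here were chosen after their values were seen.

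Over all genes, the 2 supernatants differed in 0 of 11859 by edgeR (0%), with 510 at an unadjusted p under 0.05, 216 higher and 294 lower with mast cell supernatant; the smallest adjusted p was 0.842. By limma-voom 0 passed, and by DESeq2 11 were lower with mast cell supernatant and 0 higher. These 11 included the interferon list genes Xaf1, Stat2, Igtp and Mx2, and Ifi208, an interferon-inducible gene outside the list, which also passed by edgeR without batch 3 (log2 -2.35, adjusted p = 0.0279). Against the same untreated libraries, 174 of the 11859 genes (1.47%, beside 1.72% of all genes tested) passed with trap supernatant. Set side by side, Tgfbr1 had a log2 change of -1.16 with mast cell and -0.76 with trap supernatant, Pmepa1 -3.14 and -2.75, Itgb3 -1.45 and -1.23, and Metrnl 0.95 and 0.83. Both comparisons use the same 6 untreated libraries.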

How the data were processed

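RNA sequencing libraries of macrophages were analysed from gene counts. The authors deposited raw counts, whole numbers of reads per gene in 1 table, made with featureCounts 2.0.0 on GRCm38, per the submitters' processing notes. RNA was poly(A)-selected and libraries were stranded, per the labels' protocols. Which aligner, annotation release and strand setting were used is not given in the sources used here. Genes overlapping on opposite strands may therefore share reads.

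From these counts, edgeR 4.0.16 (R 4.3.3) was run on 13061 genes kept by filterByExpr, with TMM scaling, group and batch as terms over 14 libraries and a robust quasi-likelihood fit. P-values were adjusted over all genes tested (Benjamini-Hochberg, threshold 0.05); unless another tool is named, adjusted p-values are edgeR's. The response by batch was tested by both group-by-batch terms over the 11 untreated and mast cell supernatant libraries (12391 genes). SEs are those implied by the F statistic. CPM are TMM-normalised, and within-batch differences were taken between means of log2 CPM, computed with 1 as prior count. The tests were tried on simulated counts. Alternatives included limma-voom 3.58.1, DESeq2 1.42.0, other scaling, filters and gene definitions, each batch and each library left out. Symbols were found for 47224 of 47937 identifiers, and coordinates are from GENCODE, for identifiers that matched with their version.

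Genes named are, among those past the threshold, the 15 largest rises and 15 largest falls, the 6 with the smallest adjusted p and the 5 with the highest untreated level in each direction and up to 3 per list and direction, with 6 and 3 genes of the test by batch, 4 per direction between the supernatants and a fixed panel of 7, of which the text describes a part. Others, among them Tgfbr1, Tgfbr2, Tgfb1, Skil, Smad7, Smurf1, Tgfbi, Itgb5, list genes and markers, were named after their values were seen. Some genes and 1 gene list are not reported here. The genes described and the lists were chosen with earlier results of these data known.

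Replicate numbers 1 to 4 carry the same batch label in the untreated and mast cell groups. After removal of group means, libraries paired by these numbers correlated at 0.322 to 0.805 over genes (4 pairs), those numbered 5, which differ in batch, at -0.268, and pairs from different batches at -0.556 to 0.0708. Counts of the 25 pairs of libraries of a group differed beyond sampling noise. The chi-square over its degrees of freedom was 1.77 to 14 in the same batch and 29.1 to 74.7 otherwise. No library was thus a copy of another, and each was counted once. Whether the libraries of a batch came from separate cultures cannot be told from this check.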

Additional observations from a re-analysis of the deposited data

Results flagged for a closer look

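In 2 groups of 133 named genes, 1 library stood apart from the rest of its group in 20 cases; chance alone flags about 1 group in 20. In 17 of the 20 it was mast cell supernatant replicate 2, the only treated library of batch 2. It was the highest of the 5 treated libraries for Aebp1 (13.1 CPM; the others 0.934 to 2.08), Col4a1 (52), Cx3cr1 (61.5), Fkbp5 (42.8), Gja1 (9.37), Il10 (25.2), Il18rap (8.51), Lpxn (254), Pla2g4a (62.2), Plec (1720), Pmepa1 (1.6), Rab11fip4 (7.82), Smad6 (3.03) and Tgfbi (409; the others 172 to 223). It was the lowest for Bhlhe41 (27.2 CPM, with the others at 68.9 to 73.8), Evl (201) and Itgb5 (226). The rule flags 1 library only, so the 2 untreated libraries of batch 2 could not be flagged together. They stood apart in the same direction for Aebp1 (11.6 and 11 CPM), Col4a1 (40.2 and 44), Bhlhe41 (36.1 and 32.7) and Evl (157 in both). For Il10 and Lpxn they did not, as the highest untreated library was in batch 3 (6.71 and 208 CPM). Rab19 was highest in mast cell supernatant replicate 3 (9 CPM). Untreated replicate 6 was the highest of its group for Prex1 (354 CPM) and Skil (192 CPM). Tgfbi, Itgb5 and Skil were among the genes named after their values were seen.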

How the results depend on the processing

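The 228 risen and 341 fallen genes became 48 and 105 at a fold of at least 1.5 and 12 and 40 without the batch term. They became 71 and 138 with the replicate block (numbers 1 to 4 in place of batch). That fit used only the 11 libraries so numbered, trap supernatant included, and left out untreated and mast cell supernatant libraries with higher numbers. Leaving out batch 2 gave 90 and 128; 126 rose without batch 1 and 393 without batch 3, and DESeq2 gave 364 rises. Leaving out 1 library at a time, 154 to 320 genes rose and 258 to 383 fell, both fewest without mast cell supernatant replicate 1 and most without untreated replicate 3, and 685 to 2335 genes differed by batch (without untreated replicates 1 and 3). Between the supernatants, 1 gene was lower without batch 3 and 11 by DESeq2, and 0 in every fit that left out 1 library. With the other alternatives each of these counts stayed within 1.5 times. Without the batch term Col4a1, a collagen gene among the 228 that rose (adjusted p = 0.0277), changed sign (-0.07 against 0.42). Of 114 named genes past the threshold, 48 passed with the replicate block; the other 66 had adjusted p from 0.0507 to 0.286, and the cause was not tested. In all 14 fits that left out 1 library, 68 of the 114 passed. Depth limits genes near 1 CPM, where few passed in either direction.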

Other observations

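Several smaller gene groups also held changed genes. Of 32 glycolysis and hypoxia genes 3 rose and 3 fell (median log2 0.05), and 0 rose and 0 fell with the replicate block. The risen genes Pdk1, Pgk1 and Pkm had adjusted p = 0.221, 0.164 and 0.0827 with the block, and 0 of them passed without untreated replicate 2 or 6 or mast cell supernatant replicate 3; 1 gene fell without mast cell supernatant replicate 2. Hk2, which encodes the inducible hexokinase 2, was at 75.3, 77.8 and 153 CPM in the lowest, median and highest untreated library and at 57.2, 66.9, 42.3, 57.2 and 57.9 CPM in the treated ones. The groups did not overlap, and Hk2 fell by 0.78 ± 0.15 (SE; edgeR's adjusted p = 0.0109, and adjusted p = 0.184 with the replicate block). Of 24 Toll-like receptor and adaptor genes 3 rose and 0 fell, and by DESeq2 3 rose and 2 fell. Cd14, the lipopolysaccharide co-receptor gene, was lost in 11 and the adaptor gene Ticam1 in 5 of the 14 fits that leave out 1 library, both without untreated replicate 1, and 1 gene rose with the block. Tlr4, the lipopolysaccharide receptor gene, was at 18.7 to 41.3 CPM untreated and at 36.2 to 52.4 CPM treated, and rose by 0.45 ± 0.09 (adjusted p = 0.0067, and adjusted p = 0.0865 with the block).

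Spry2, a feedback inhibitor of receptor tyrosine kinase signalling, rose by 0.58 ± 0.12 (adjusted p = 0.0104), from 11.4 to 20.6 CPM untreated to 20.8 to 33.7 CPM treated, and was 1 of 2 genes that rose among 14 of ERK feedback, of which 0 fell (1 rose with the block, and without untreated replicate 2 or 4 or mast cell supernatant replicate 1, 4 or 5). Ctsl, which encodes the lysosomal protease cathepsin L, was the only riser of 33 lysosome genes (0.21 ± 0.04, adjusted p = 0.0068, and 0.068 with the block). Gsr, the glutathione reductase gene, was the only riser of 27 genes of the NRF2 and iron list (0.26 ± 0.05, adjusted p = 0.00913, and 0.136 with the block), and 0 fell in either list.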
